A study of Mus musculus with 8 samples.

Results

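The 10 genes described here encode the core transcription factors of epithelial-mesenchymal transition (Snai1, Snai2, Zeb1, Zeb2, Twist1 and Twist2), the cadherins that exchange places during it (Cdh1 and Cdh2), the intermediate filament protein vimentin (Vim) and the epithelial adhesion protein Epcam. They were chosen by symbol, and all 10 were found among the 24028 genes of each deposited table. The tables cover 8 tumours grown from TRAMP-C2 cells, an established epithelial line of mouse prostate adenocarcinoma that was derived from a TRAMP mouse, whose transgene drives SV40 T antigen from a probasin promoter. Each host was a male, immune-competent C57BL/6 mouse that received 1000000 cells in the dorsolateral prostate, and tumours were taken 30 to 45 days later. The aged hosts were 20 to 24 months old (19 injected, 4 tumours sequenced) and the young hosts 4 months old (20 injected, 4 tumours sequenced), with no other treatment or allele named in either group. Each tumour came from a mouse of its own and is called here by host group and mouse number, and the harvest day of single tumours was not used here.

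In epithelial-mesenchymal transition, epithelial cells loosen their junctions and take on features of migratory mesenchymal cells. Factors of the SNAI and ZEB families bind the E-box CAGGTG in promoters of epithelial genes such as Cdh1 and repress them, while TWIST factors, which are basic helix-loop-helix proteins, act with them and favour expression of Cdh2. In carcinomas the change is often partial, and fibroblasts, endothelial cells and macrophages of the host also express several of these genes. RNA of injected and host cells was measured together, so fewer cells of a type and less RNA per cell cannot be told apart in any value below.

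The promoter windows of Snai1 and Epcam are shown because Snai1 had the smallest p-value of the 10 genes between host ages and Epcam the widest range between tumours. Both are 300 bases from RefSeq on GRCm38.p6, plus strand, from 250 bases before the gene's start to 50 bases after it, with CAGGTG or its reverse complement CACCTG in capitals.
Snai1, chr2:167537945-167538244: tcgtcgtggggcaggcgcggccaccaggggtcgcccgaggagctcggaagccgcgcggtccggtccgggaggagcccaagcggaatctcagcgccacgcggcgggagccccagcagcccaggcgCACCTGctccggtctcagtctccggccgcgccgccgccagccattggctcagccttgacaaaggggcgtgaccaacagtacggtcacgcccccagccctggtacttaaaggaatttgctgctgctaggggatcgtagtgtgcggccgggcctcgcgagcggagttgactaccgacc
Epcam, chr17:87635729-87636028: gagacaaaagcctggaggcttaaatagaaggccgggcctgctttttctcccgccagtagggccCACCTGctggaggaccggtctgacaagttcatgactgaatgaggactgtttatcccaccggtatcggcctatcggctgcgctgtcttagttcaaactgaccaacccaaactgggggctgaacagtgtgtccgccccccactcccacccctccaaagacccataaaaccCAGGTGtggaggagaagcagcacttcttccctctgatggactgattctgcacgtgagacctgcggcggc
The Snai1 window held the motif once, beginning 126 bases before the start, and the Epcam window held it 2 times, beginning 187 and 19 bases before the start. Of 32851 RefSeq promoter windows of this length, 20.2% held CAGGTG on either strand at least once and 2.9% at least 2 times. RefSeq windows were found for 6 of the 10 genes, and those of Twist1, Twist2, Vim and Zeb2 held no match. Cdh1, Cdh2, Snai2 and Zeb1 were not matched. A match is a run of letters, and binding was not measured here.

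Libraries held 27054498 (young 37) to 35729488 (young 43) fragments, so that 3 fragments, the limit that a count of 0 allows, are 0.084 to 0.111 CPM (a gene's fragments on the counts-per-million scale, counting error only). The 10 genes gave 25 (Epcam in young 43) to 97938 fragments (Vim). The tumours differed in transcripts of host tissue. The 8 seminal vesicle secretory genes examined summed to 22952 CPM in aged 50 and 38197 CPM in young 36 and to at most 18.9 CPM in the other 6, with Svs1, Svs3a, Svs3b and Svs6 at 0 in some tumours. The 14 genes of normal prostate gland summed to 310 to 6789 CPM in aged hosts and 299.9 to 11561 CPM in young hosts, and the 10 skeletal muscle genes to 156 CPM in aged 51 against at most 41.7 CPM in the others. Keratins of luminal epithelium were counted in all tumours, at 21.5 to 124 CPM for Krt8 and 3.81 CPM (young 43) to 174 CPM (aged 50) for Krt18. These counts do not tell epithelium of the host from injected cells.

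Of the 10 genes, Snai1 differed most between host ages. It was lower in every aged than in any young tumour, and so was Twist1. None of the 10 genes passed edgeR's quasi-likelihood test after Benjamini-Hochberg adjustment over all 14575 genes tested, where 0% passed. At an unadjusted p of 0.05 by edgeR, 2 of the 10 were lower in aged tumours, against 2.66% of all genes, and 0 were higher, against 2.34% (4.99% in either direction). DESeq2 called 1 of the 10 (Snai1, lower), against 0.297% of the genes it adjusted (0.179% lower), and limma voom 0, against 0.0617% (0.0343% lower). In log2 CPM the groups did not overlap, with aged tumours lower, for 2 of the 10 genes, against 2.31% of all genes, and for 0 with aged tumours higher, against 1.35% (3.66% in either direction). All 6 transcription factors had fold changes below 0, as did 44.7% of all genes, although those of Snai2 and Zeb2 were above 0 without young 43. Over the 10 genes the median log2 fold change, aged minus young, was -0.17, beside 0.03 over all genes tested.

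**Figure D1:**
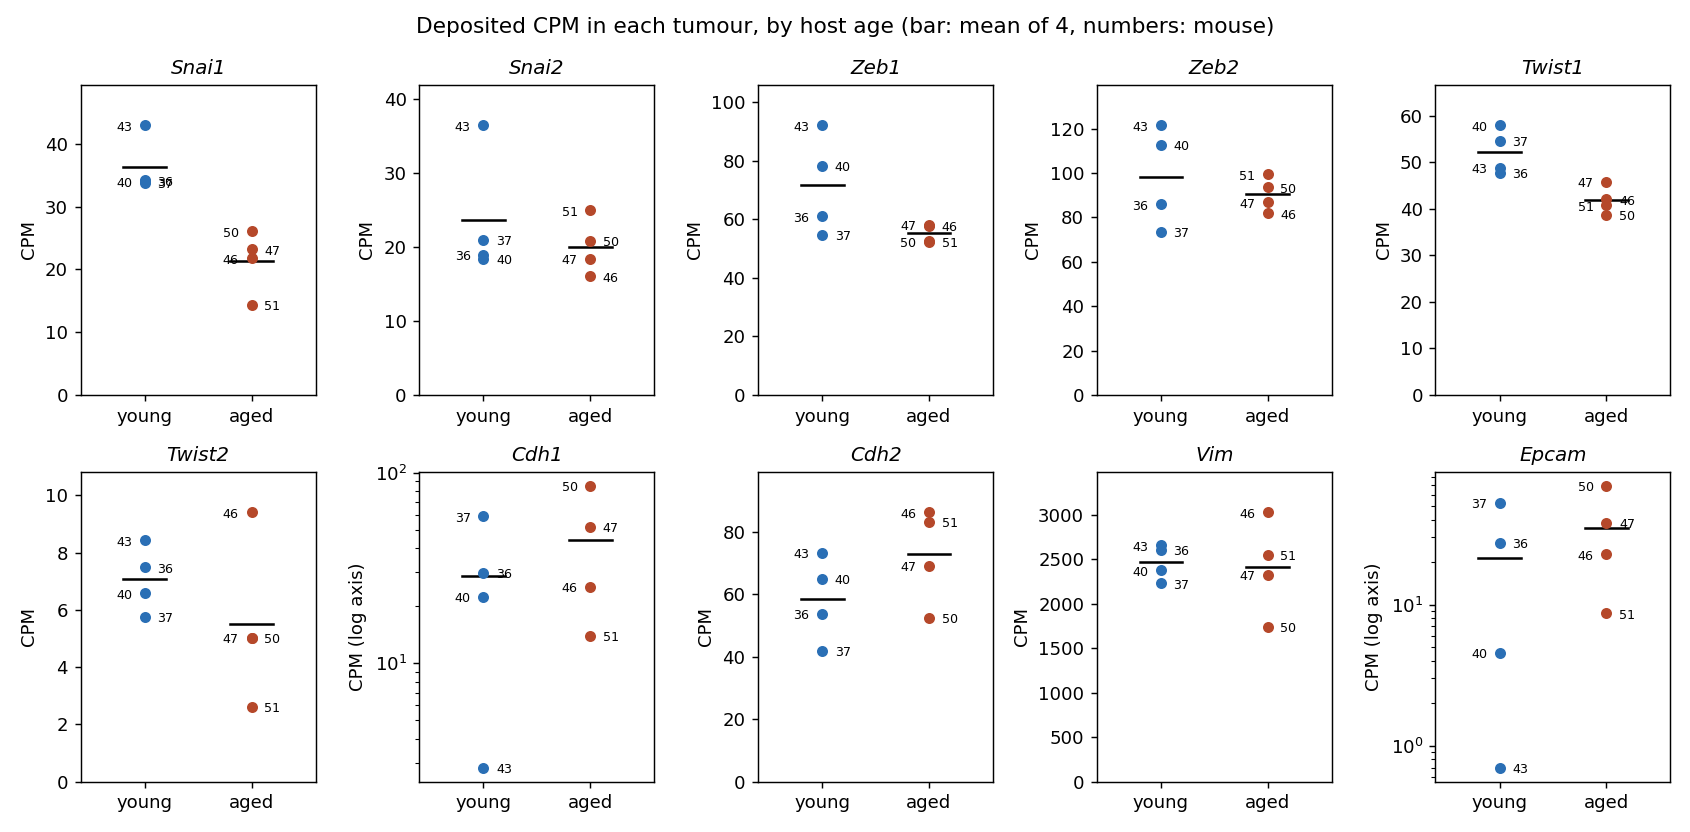
Deposited CPM of the 10 genes in each of 8 tumours, by host age, with the mouse number beside each point and a bar at the arithmetic mean of 4. The axes of Cdh1 and Epcam are logarithmic and the others start at 0. Snai1 and Twist1 lie lower in all 4 aged tumours, while Cdh1 and Epcam spread widely within both groups.

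Snai1 encodes Snail, a zinc finger repressor with a short-lived protein that starts many transitions (Entrez 20613, GRCm38 chromosome 2, 167538195 to 167542814). It stood at 21.7 CPM in aged 46, 23.2 in aged 47, 26.1 in aged 50 and 14.4 in aged 51, and at 34.2 in young 36, 33.7 in young 37, 34.0 in young 40 and 42.9 in young 43. Aged 51 was low and young 43 high within their groups, and the highest aged tumour lay below the lowest young one. Aged tumours averaged 21.4 ± 4.98 CPM and young ones 36.2 ± 4.48 CPM (SD, n = 4 per host age), with a log2 fold change of -0.76 ± 0.17 (SE), an unadjusted p of 0.00184 and an adjusted p of 0.831 by edgeR. The adjusted p was 0.0457 by DESeq2 and 0.0693 by voom. The fold change stayed between -0.85 and -0.63 in 16 alternatives, of which only DESeq2 took it past the threshold.

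Snai2 encodes Slug, the second member of the family, which is also active in basal epithelial cells and fibroblasts (20583, chromosome 16, 14705852 to 14709395). Its values were 16.0, 18.4, 20.8 and 24.9 CPM in aged 46, 47, 50 and 51, and 19.0, 21.0, 18.4 and 36.4 CPM in young 36, 37, 40 and 43. The groups overlapped, and young 43 stood above the other 7 tumours. The log2 fold change was -0.23 ± 0.25 (SE, adjusted p = 0.923 by edgeR), and without young 43 it was 0.05. Snai3, the third family member, was counted at 0 to 0.67 CPM and did not pass the filter on low counts.

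Zeb1 and Zeb2 encode large zinc finger and homeodomain repressors that bind the same E-box and are held in check by the miR-200 family. Zeb1 (21417, chromosome 18, 5591327 to 5775468) stood at 57.8, 58.1, 52.4 and 52.2 CPM in aged 46, 47, 50 and 51, and at 60.9, 54.7, 78.3 and 92.0 CPM in young 36, 37, 40 and 43. The aged tumours lay close together, and 3 of the 4 young tumours lay above all of them, with young 37 inside their range. The estimate was -0.36 ± 0.16 on the log2 scale (SE, unadjusted p = 0.0564 and adjusted p = 0.923 by edgeR), and -0.22 without young 43.

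Zeb2 (24136, chromosome 2, 44983512 to 45117442), which macrophages also express, stood at 81.9, 86.8, 93.6 and 99.5 CPM in aged 46, 47, 50 and 51, and at 85.9, 73.4, 113 and 121 CPM in young 36, 37, 40 and 43. The young tumours held both the lowest and the highest values. On the log2 scale aged minus young came to -0.10 ± 0.16 (SE, adjusted p = 0.942 by edgeR) and 0.01 without young 43. The 12 macrophage genes examined summed to 3134 to 6271 CPM in the aged group and 4023 to 6215 CPM in the young group, with none at 0. Across the 8 tumours the relation of Zeb2 to their mean level did not pass (Pearson r = -0.28, exact permutation p = 0.5, Spearman rho = -0.29, exact permutation p = 0.5, and adjusted p = 0.5 for both over the 6 relations of this kind examined). Without aged 46 and aged 51, the tumours farthest from the median macrophage level, r was -0.65 (exact permutation p = 0.18).

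Twist1 encodes a basic helix-loop-helix factor of mesoderm and mesenchyme (22160, chromosome 12, 33957671 to 33959831). It stood at 42.1, 45.9, 38.8 and 40.8 CPM in aged 46, 47, 50 and 51, and at 47.8, 54.7, 57.9 and 48.9 CPM in young 36, 37, 40 and 43. Every aged tumour was below every young tumour, with a gap of 45.9 to 47.8 CPM between the groups. Aged tumours averaged 41.9 ± 2.99 CPM and young ones 52.3 ± 4.82 CPM (SD, n = 4 per host age), and the log2 fold change was -0.31 ± 0.11 (SE, unadjusted p = 0.021 and adjusted p = 0.923 by edgeR). No alternative took it past the threshold, with adjusted p-values of 0.284 to 0.997.

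Twist2, its close relative, is known from dermis and other connective tissue (13345, chromosome 1, 91801461 to 91848034). It had the lowest median of the factors per length, although it lay above Zeb2 in aged 46. It stood at 9.41, 5.02, 5.02 and 2.61 CPM in aged 46, 47, 50 and 51, and at 7.49, 5.77, 6.58 and 8.42 CPM in young 36, 37, 40 and 43. The aged tumours held both extremes, aged 46 and aged 51, and the young tumours lay between them. The log2 fold change was -0.34 ± 0.37 (SE, adjusted p = 0.923 by edgeR), which became -0.78 when aged 46 was left out and -0.11 when aged 51 was. The 10 fibroblast genes examined summed to 719 CPM (aged 46) to 1768 CPM in the aged group and 965 to 1761 CPM in the young group, with none at 0, so that the tumour highest in Twist2 was the lowest in this sum. Over 8 tumours the relation of Twist2 to their mean level gave a Pearson r of -0.36 (exact permutation p = 0.38, adjusted p = 0.45) and a Spearman rho of -0.45 (exact permutation p = 0.27, adjusted p = 0.32), and r was -0.14 without aged 46 and young 40 (exact permutation p = 0.78). Exons of Zeb1, Zeb2 and Twist2 overlap those of transcripts on the opposite strand in GENCODE vM21 (Gm10125, Zeb2os and Gm29100 among them), and no source used here states a strand setting for the counting, so these 3 values may include reads of the partner.

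**Figure D2:**
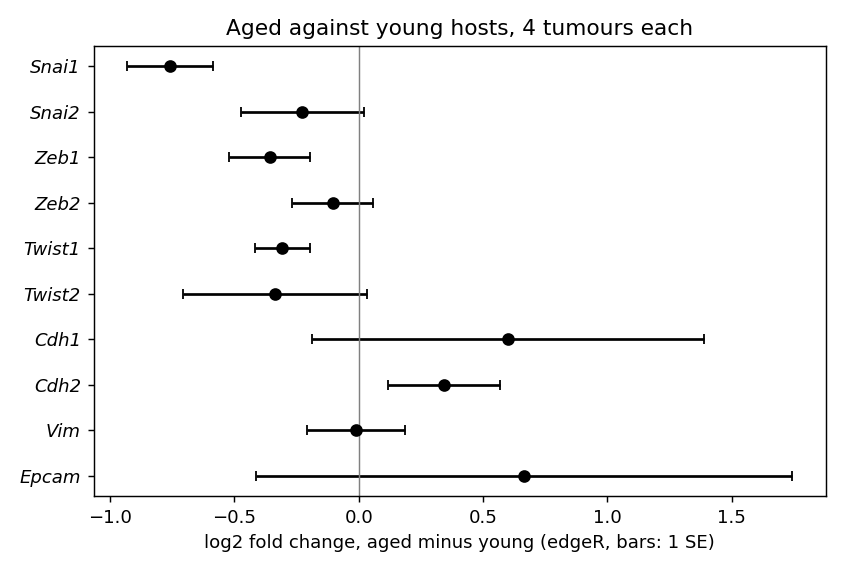
Log2 fold change of each gene, aged minus young, from edgeR's quasi-likelihood fit of 4 tumours against 4, with bars of 1 SE. Snai1 (-0.76) lies farthest below 0, and the bars of Cdh1 and Epcam are the longest.

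The epithelial pair, Cdh1 and Epcam, varied more over the 8 tumours than nearly all other genes, and spread widely within both host ages. This was not particular to the pair. By SD over the 8 tumours, the epithelial genes Cldn4 and Foxa1 were at percentiles 98 and 97.3 of all genes tested, although Jup was at 67.8. Cdh1 encodes E-cadherin, the calcium-dependent adhesion protein of epithelial junctions (12550, chromosome 8, 106603350 to 106670247). It stood at 25.1, 52.1, 85.3 and 13.9 CPM in aged 46, 47, 50 and 51, and at 29.8, 59.1, 22.2 and 2.83 CPM in young 36, 37, 40 and 43. The highest tumour (aged 50) was 30.2-fold above the lowest (young 43), and the range of the young group spanned that of aged 46, 47 and 51. Its SD over the 8 tumours was 1.51 log2 CPM, at percentile 97.2 of all genes tested. The log2 fold change was 0.60 ± 0.79 (SE, adjusted p = 0.927 by edgeR). It was 0.09 without aged 50, 0.22 without young 43 and 1.24 without young 37.

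Epcam encodes an adhesion glycoprotein of simple epithelia and many carcinomas (17075, chromosome 17, 87635979 to 87651127). It stood at 22.7, 38.0, 69.4 and 8.67 CPM in aged 46, 47, 50 and 51, and at 27.3, 52.5, 4.54 and 0.70 CPM in young 36, 37, 40 and 43. The range was 99.1-fold, 8-fold within the aged and 75.1-fold within the young group, and the SD of 2.17 log2 CPM was at percentile 99.1 of all genes tested. Its log2 fold change was 0.67 ± 1.08 (SE, adjusted p = 0.945 by edgeR). It was 0.11 without aged 50, 0.26 without young 43, 0.33 without young 40 and 1.61 without young 37. The tumours stood in the same order in Epcam as in Cdh1, except that aged 51 and young 40 changed places. Per length, Cdh1 was 0.51 to 0.75 of Epcam in 6 tumours and above it in young 40 (2.29) and young 43 (1.89).

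Cdh1 and Epcam were examined beside transcripts of normal prostate gland, whose epithelium expresses both. The 14 gland genes averaged 6.21 log2 CPM in aged 50, 5.61 in young 36, 4.90 in young 37, 3.67 in aged 51, 3.04 in aged 47, 2.71 in aged 46, 1.67 in young 40 and -0.50 in young 43, and Msmb, a secreted prostate protein, was the only one at 0 in any tumour. Across the 8 tumours Cdh1 went with this mean at a Pearson r of 0.83 (exact permutation p = 0.01, adjusted p = 0.031 over the 6 relations) and a Spearman rho of 0.76 (exact permutation p = 0.037, adjusted p = 0.092). For Epcam, r was 0.88 (exact permutation p = 0.0034, adjusted p = 0.021) and rho 0.83 (exact permutation p = 0.015, adjusted p = 0.092). Both relations rested on the extreme tumours: without young 43 and aged 50, r was 0.36 for Cdh1 (exact permutation p = 0.48) and 0.64 for Epcam (exact permutation p = 0.17). Without young 43 alone, r was 0.59 for Cdh1 (exact permutation p = 0.16) and 0.73 for Epcam (exact permutation p = 0.06), with an adjusted p of 0.32 for both. Leaving out aged 50, young 37 or young 40 also took both adjusted p-values above 0.05, to 0.056 to 0.12, and leaving out aged 46 took that of Cdh1 to 0.054. Over deviations from the mean of each host age, r was 0.82 for Cdh1 and 0.89 for Epcam (exact permutation within host age, p = 0.031 and adjusted p = 0.094 for both).

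Single tumours departed from that order. Young 36 was next to aged 50 in gland mean and had the highest seminal vesicle sum, but 3 tumours were above it in both Cdh1 and Epcam, while aged 47, with less gland signal than aged 51, had 52.1 CPM of Cdh1 against 13.9. With the mean of the 4 seminal vesicle genes that passed the filter, r was 0.49 for Cdh1 (exact permutation p = 0.22, rho = 0.69, exact permutation p = 0.069) and 0.56 for Epcam (exact permutation p = 0.11, rho = 0.74, exact permutation p = 0.046), with adjusted p-values of 0.092 to 0.32. Without young 36 and aged 50, r was 0.62 (exact permutation p = 0.16) and 0.78 (exact permutation p = 0.058). The part that gland tissue has in the values of Cdh1 and Epcam was not tested. Without aged 50 and young 36 the log2 fold changes, aged minus young, were 0.13 for Cdh1 and 0.28 for Epcam, and with the gland mean as a covariate they were 0.43 and 1.02.

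**Figure D3:**
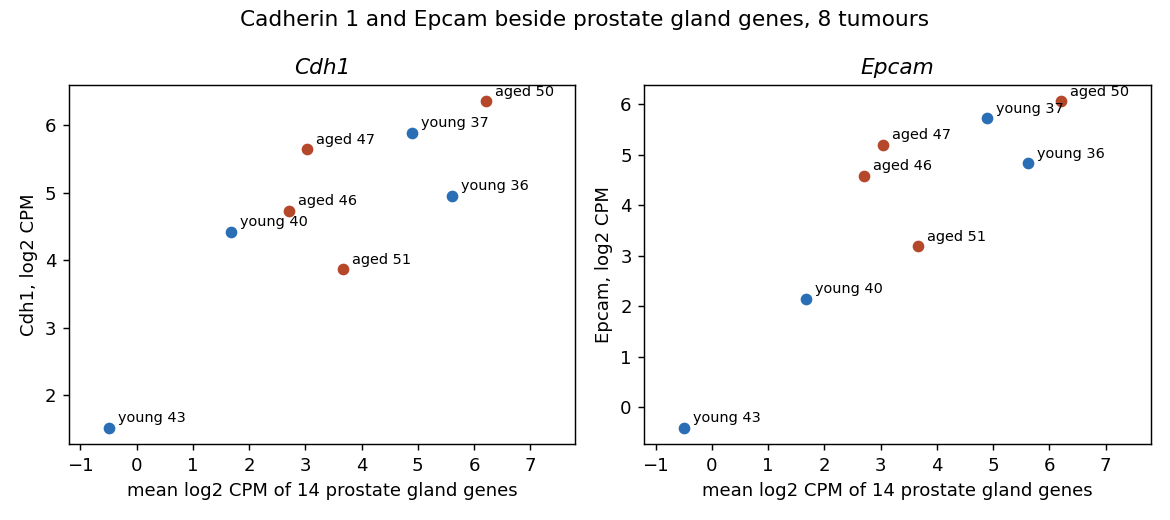
Log2 CPM of Cdh1 (left) and Epcam (right) against the mean log2 CPM of 14 prostate gland genes, 1 point for each of 8 tumours, aged hosts in red and young hosts in blue. Young 43 lies at the lower left of both panels and aged 50 at the upper right.

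Cdh2 encodes N-cadherin, the cadherin of neural and mesenchymal cells that carcinoma cells can gain as Cdh1 is lost (12558, chromosome 18, 16588877 to 16809246). It stood at 86.4, 69.3, 52.5 and 83.3 CPM in aged 46, 47, 50 and 51, and at 53.9, 41.9, 65.1 and 73.4 CPM in young 36, 37, 40 and 43. The lowest values belonged to young 37 and aged 50, the tumours highest in Cdh1 and Epcam, and the ranges of the host ages overlapped. The log2 difference between host ages was 0.34 ± 0.23 (SE, adjusted p = 0.923 by edgeR), and it was 0.22 without aged 46 and 0.21 without young 37. Its highest value was 2.06-fold above its lowest.

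The exchange of cadherins can be read as the ratio of Cdh2 to Cdh1 per transcript length. It was 3.26, 1.26, 0.59 and 5.71 in aged 46, 47, 50 and 51, and 1.72, 0.67, 2.78 and 24.6 in young 36, 37, 40 and 43. Thus 6 of 8 tumours had more Cdh2 than Cdh1 per length, and both host ages held a tumour on the other side. The ratio spanned 42.2-fold, and Cdh1 (30.2-fold) contributed a wider range to it than Cdh2.

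Vim encodes vimentin, the intermediate filament protein of mesenchymal cells, which leukocytes and endothelium also hold (22352, chromosome 2, 13574311 to 13582826). It stood at 3033, 2325, 1740 and 2553 CPM in aged 46, 47, 50 and 51, and at 2609, 2230, 2380 and 2658.5 CPM in young 36, 37, 40 and 43. The aged tumours held the highest and the lowest value, and the young ones lay between them. The host ages differed by -0.01 ± 0.20 on the log2 scale (SE, adjusted p = 0.997 by edgeR), and its sign changed in 6 of 16 alternatives. In young 43 the ratio of Vim to Epcam per length was 4270, against 28.2 to 589 in the other 7 tumours.

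Young 43 combined the extremes of the set. It was the highest of the 8 tumours in Snai1, Snai2, Zeb1 and Zeb2 and the lowest in Cdh1 and Epcam, while in Twist2 and Vim it had rank 2 and in Twist1 and Cdh2 rank 3, from the highest. It was also the lowest tumour for 10 of 14 tested regulators of epithelial identity, 21 of 25 epithelial junction genes and 3 of 8 keratins. Aged 50 was the highest tumour for 9, 23 and 1 of these genes. Keratins did not single out either tumour, since aged 51 was also the lowest for 3 of 8 and aged 47 the highest for 4. The shares of all genes that were lowest in young 43 or highest in aged 50 were not determined, and genes of such a list are not independent. No label sets young 43 apart from the other young tumours.

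**Figure D4:**
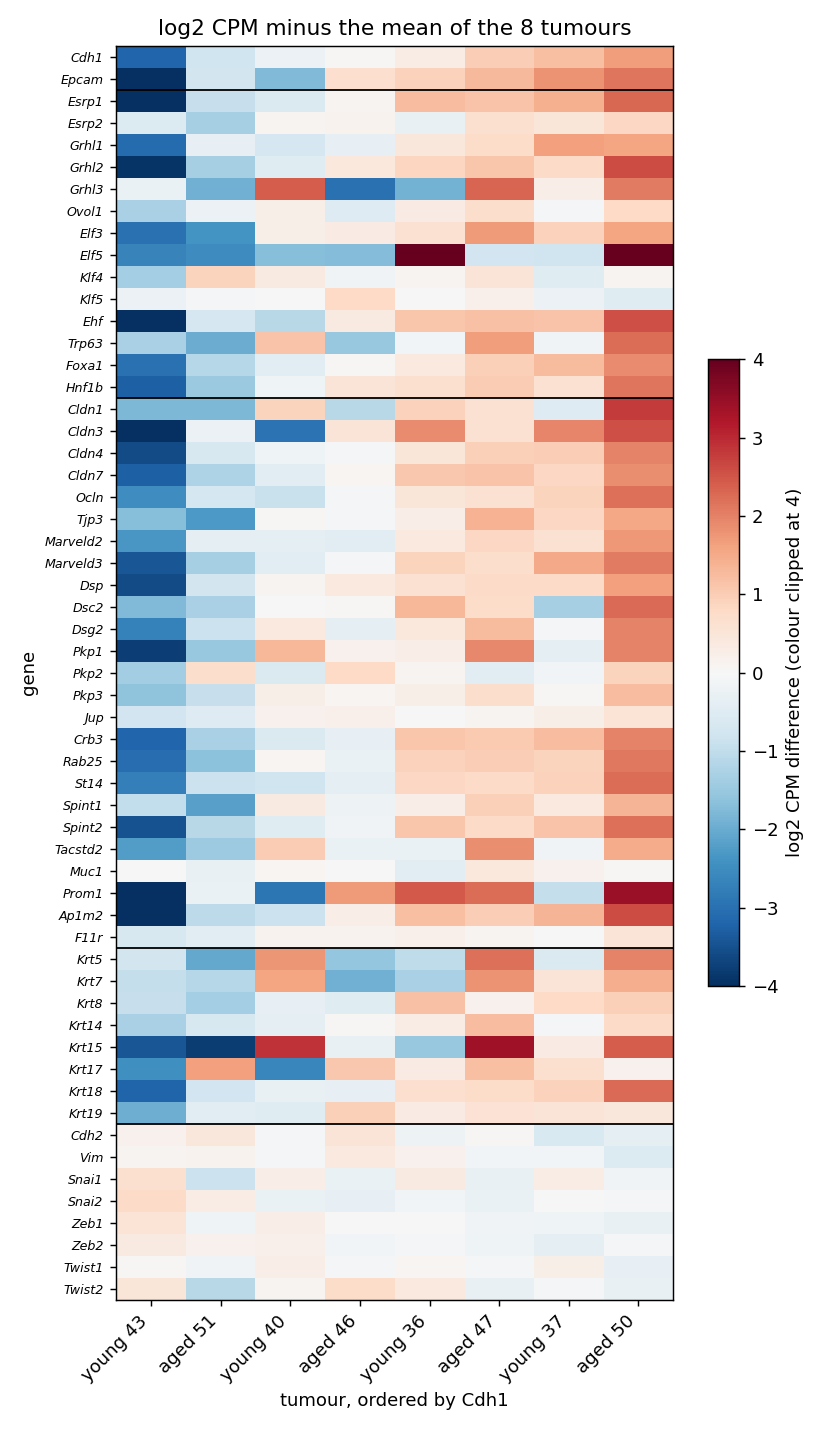
Log2 CPM of each gene minus its mean over the 8 tumours, with tumours ordered from left to right by Cdh1. Lines separate Cdh1 and Epcam, regulators of epithelial identity, junction genes, keratins and the 8 other members. Most epithelial genes run from low in young 43 to high in aged 50, and the transcription factors vary far less.

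Levels of different genes were compared as deposited FPKM, which is CPM per kilobase of transcript. Vim was the most abundant of the 10 in all 8 tumours, with a median of 1345 FPKM, and its range did not overlap that of any other. Twist1 followed at 28.7 FPKM and was above Snai1 (18.9 FPKM) in 8 of 8 tumours, although their ranges over tumours overlapped. Cdh2 (14.5), Epcam (12.1) and Snai2 (9.88 FPKM) came next. Snai1 lay above Cdh2 in 5 of 8 tumours, and Epcam lay below Cdh2 in 4 of 8 tumours and above Snai2 in 5, so this order does not exceed the spread between tumours. Zeb1 (7.51 FPKM) was below Snai2 and above Zeb2 (6.52 FPKM) in 7 of 8 tumours each. Zeb2 and Cdh1 (6.23 FPKM) changed places in 4 of 8 tumours. Twist2 had the lowest median, 4.71 FPKM, although Cdh1 lay below it in aged 46 and young 43, and Zeb2 in aged 46. The ratio of Zeb2 to Zeb1 was 0.79 to 1.06 in aged and 0.74 to 0.80 in young tumours, and the ratio of Snai1 to Snai2 was below 1 in aged 51 alone (0.73).

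**Figure D5:**
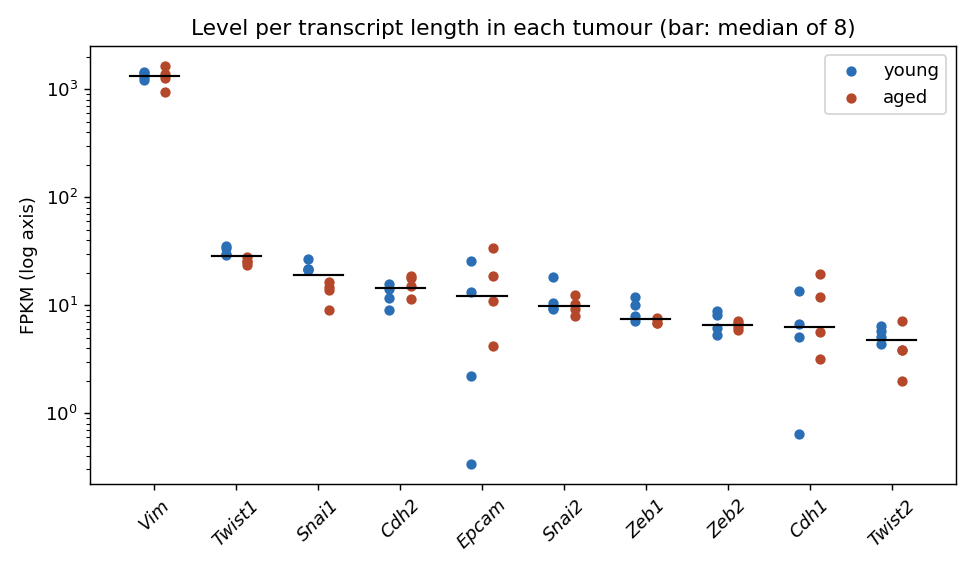
Deposited FPKM of each gene in 8 tumours on a logarithmic axis, ordered by the median (bar), with young hosts in blue and aged hosts in red. Vim stands apart at a median of 1345 FPKM, and only Cdh1 and Epcam reach below 1 FPKM.

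The genes whose log2 CPM ran most like that of each member were looked up among 13192 genes with a median of at least 1 CPM, as a description over 8 tumours without a test. For Cdh1 they were Foxa1, a pioneer factor of luminal epithelium, and Cldn4, a tight junction claudin (Pearson r of 0.99 for each, and 0.99 and 0.98 without young 43 and aged 50). For Epcam they were Sh3yl1 (0.99, and 0.97 without young 43 and young 40) and Slc44a3, a choline transporter-like gene (0.99, and 0.93). For Snai1 they were Mov10, an RNA helicase, and Sh3d19 (0.98 each, and 0.93 and 0.95 without aged 51 and young 43). For Twist1 they were Ahsa2 and the Wnt ligand gene Wnt10a, at 0.98 and 0.96. For Cdh2, Dctn4, a dynactin subunit, stood at 0.98. Snai2 was nearest to Tex9 and Pdxdc1 (0.99 and 0.97), and the latter value was 0.59 without young 43 and aged 51. Zeb1 was nearest to Myadm and Dock4 (0.97 each), Zeb2 to Garem and Hivep2 (0.96 and 0.95), Twist2 to A330074K22Rik and 2810004N23Rik (0.99 each) and Vim to Zfp189 and Mrpl45 (0.98 each).

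None of the genes tested that hold the epithelial state passed by edgeR, and how many of them had fold changes above 0 depended on single tumours. Of 14 tested transcription and splicing factors of epithelial identity, 14 had fold changes above 0, as did 55.3% of all genes, and the median log2 fold change was 0.63, beside 0.03 over all genes. Without aged 50, 9 of 14 were above 0 (median 0.19). None of the 14 was under an unadjusted p of 0.05. Klf4, a zinc finger factor of differentiated epithelium, had 0.61 ± 0.36 (0.39 without aged 51 and 0.37 without young 43). Klf5, its relative of proliferating epithelium, had 0.31 ± 0.25 (0.04 without aged 46 and 0.48 without aged 50).

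Of 25 junction and surface genes, 25 had fold changes above 0 (median 0.64). The count was 14 of 25 without aged 50 (median 0.06), near the share over all genes, and 22 of 25 without young 43 (median 0.32). At an unadjusted p of 0.05, 1 of 25 was higher in aged tumours, against 2.34% of all genes. That gene was Pkp2, a desmosomal plakophilin, at 15.9, 7.21, 18.5 and 14.8 CPM in aged 46, 47, 50 and 51 and 9.98, 8.83, 6.65 and 3.67 CPM in young 36, 37, 40 and 43. Its groups overlapped, and its log2 fold change was 0.96 ± 0.38 by edgeR and 0.08 by voom with sample weights. Dsg2, a desmosomal cadherin, had 1.07 ± 0.77 (0.43 without aged 50 and 0.70 without young 43). Of 8 keratins, 7 were above 0 (median 0.79), 6 without aged 50 and 5 without aged 47 (median 0.32). Krt17 had 1.57 ± 0.85 and Krt14 0.76 ± 0.48 (0.41 without aged 47). Krt17 was low throughout, at most 2.35 CPM (aged 51), and near the limit of 3 fragments in young 40 (0.07 CPM) and young 43 (0.08 CPM). The keratin below 0 was Krt8 (-0.34 ± 0.56).

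The junction genes summed to 148 to 771 CPM in the aged group and 89.1 to 360 CPM in the young group, so the groups overlapped. Genes of such a list are not independent of each other. Of the 14 prostate gland genes, 11 also had fold changes above 0 (median 0.79), and with their mean as a covariate the medians were 0.44 for the junction genes, 0.55 for the regulators and 0.66 for the keratins. The part of gland tissue in these lists was not tested, and a covariate taken from the same tumours cannot measure it.

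Among the other cadherins, 12 of 21 were tested, 6 with fold changes above 0 and 6 below, and 0 passed by edgeR. At an unadjusted p of 0.05, 1 of 12 was lower in aged tumours, against 2.66% of all genes. Cdh3, the P-cadherin of basal epithelium, stood at 72.0, 83.8, 108 and 78.0 CPM in aged 46, 47, 50 and 51, and at 101, 109.8, 112 and 137 CPM in young 36, 37, 40 and 43. In CPM aged 50 lay above young 36, while after TMM scaling the groups did not overlap (1 of 12 with aged tumours lower, against 2.31% of all genes). The log2 fold change was -0.42 ± 0.14 (SE, unadjusted p = 0.0132 and adjusted p = 0.923 by edgeR). Cdh24 had -0.43 ± 0.28, and Cdh7 and Cdh12 had no fragment in any tumour. Catenins, which link cadherins to actin, gave 0 of 6 passed, with Ctnna1 at 0.19 ± 0.17 (0.06 without aged 51, 0.12 without young 37 and 0.29 without aged 50) and Ctnnal1 at 0.56 ± 0.30 (0.28 without aged 50).

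Further regulators and partners of the transition did not pass either. Of 19 tested additional transcription factors, 13 had fold changes below 0, against 44.7% of all genes, and 0 were under the unadjusted p of 0.05 by edgeR. Tcf4, an E protein that pairs with TWIST factors, had -0.27 ± 0.19 (-0.07 without young 43), and Foxc1 had -0.26 ± 0.20 (-0.15 without aged 46). Of 16 co-repressors and modifying enzymes, 9 were below 0, with the Snail ubiquitin ligase gene Fbxl14 at -0.20 ± 0.11 (-0.11 without young 43). The lysyl oxidase-like gene Loxl2 had -0.20 ± 0.21 (-0.06 without aged 46 and -0.42 without aged 51). Of 7 tested intermediate filament genes, 4 were below 0, with Lmnb1 at -0.20 ± 0.14 and Lmnb2 at -0.22 ± 0.20 (-0.08 and -0.04 without young 43, and -0.34 for Lmnb2 without young 36).

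Of 24 mesenchymal genes, 16 had fold changes below 0 (median -0.20) and 0 passed by edgeR. At an unadjusted p of 0.05, 3 of 24 were lower in aged tumours, against 2.66% of all genes, and 0 were higher. The gelatinase gene Mmp9 had -1.87 ± 0.39 by edgeR and -1.15 by voom. Its adjusted p was 0.773 by edgeR, 0.0012 by DESeq2 and 0.414 by voom. The groups of Mmp9 overlapped, with 18.9 CPM in aged 47 and 17.1 CPM in young 36. The tenascin gene Tnc had -0.72 ± 0.20 and the fibronectin gene Fn1, outside the naming rule, -0.54 ± 0.20.

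Of 17 genes of the TGF-beta pathway, a main inducer of these factors, 6 were below 0 and 1 was under the unadjusted p of 0.05, lower in aged tumours, against 2.66% of all genes. This was the ligand gene Tgfb3 (-0.46 ± 0.20), and the receptor gene Tgfbr2 had -0.36 ± 0.19 (-0.20 without aged 46). Of 19 genes of other inducing pathways, 13 were below 0, against 44.7% of all genes, and 2 were under the unadjusted p of 0.05, both lower, against 2.66%. The PDGF receptor gene Pdgfrb, which also marks mural cells and fibroblasts, had -0.88 ± 0.20. Its adjusted p was 0.831 by edgeR, 0.0239 by DESeq2 and 0.106 by voom. In log2 CPM, Pdgfrb (1 of 19) and Tgfbr2 (1 of 17) were lower in every aged than in any young tumour, against 2.31% of all genes. The oxygen-regulated factor gene Hif1a had -0.38 ± 0.15 by edgeR and -0.14 by voom.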

How the data were processed

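Bulk mRNA of 8 tumours was read as 50 bp paired ends from 1 µg of RNA each, per the labels' protocols. TopHat2 2.0.12, Picard 2.7.1, bcl2fastq and the build GRCm38 (mm10) are listed in the submitters' processing notes, without their roles. For the counting program, the annotation and strand, nothing is stated in the sources used here. Per the file headers, the authors deposited a fragment count, FPM and FPKM for each Entrez gene. The deposited FPM is CPM, the count over the tumour's total, and the deposited FPKM is that CPM per kilobase of transcript. 27 symbols turned into dates were restored from RefSeq.

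Counts were fitted with edgeR 4.0.16 (R 4.3.3): filterByExpr (minimum count 10, total 15), TMM, robust quasi-likelihood, host age as the only term, Benjamini-Hochberg over all genes at 0.05. The SE is the fold change over the square root of F. Log2 CPM used a prior count of 2. The procedure was tested on simulated data, where it recovered 27 of 100 2-fold and 67 of 100 4-fold changes, with 7 false calls. Relations used exact permutation over 40320 pairings. Alternatives were DESeq2 1.42.0, limma 3.58.1 voom with sample weights, other scalings and filters, a prostate gland covariate and tumours left out. DESeq2 gave no adjusted p for 73 genes. The closest pair of libraries had a chi-square per degree of freedom of 44.8, so none repeated another. No batch is labelled.

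The 10 genes and all lists were chosen with earlier results of these data known. Named genes are the 10, the 2 smallest p of each pathway list and the 2 nearest genes of each member. One of the nearest genes is not reported here.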

Additional observations from a re-analysis of the deposited data

How the results depend on the processing

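For all genes together edgeR called 0 in every scaling, filter, covariate and left-out tumour tried (728 at an unadjusted p of 0.05), DESeq2 called 43 (17 higher and 26 lower) and limma voom 9. Of the 10 genes DESeq2 called 1 (Snai1) and all other settings 0, and leaving out each tumour gave 0 to 0. The number of the 10 whose groups did not overlap was 2 with deposited FPM and 2 without aged 50 and young 36. It was 2 to 3 with each tumour left out. The share of all genes without overlap was not determined in these settings. Smaller groups separate more readily by chance, so the counts with tumours left out cannot show that the separation is stable. Reversed signs, all far from the threshold, were those of Snai2 (0.0515 without young 43, and -0.38 to 0.0515 over the log2 fold changes with each tumour left out) and Zeb2 (0.0108 without young 43, and -0.22 to 0.0108), and of Vim without aged 50 and young 36 (0.18), with the gland covariate (0.021), and without aged 47, aged 50, young 36 or young 43 (-0.17 to 0.13 over the tumours left out, 0.03, 0.13, 0.04 and 0.02 in turn). The cause was not tested. Of the 6 transcription factors 0 had a fold change above 0, and 2 did without young 43, a count added after seeing the data like those of the epithelial lists. The relations of Cdh1 and Epcam to the gland genes kept their sign in 11 settings, chosen after seeing the data, and Cdh1 went to r = 0.59 without young 43 (exact permutation p = 0.16). No paired analysis was possible because the groups share no mouse numbers. With 4 tumours a group, errors of about 1 on the log2 scale (Epcam) leave wide intervals. The p-values between host ages weigh the difference of the groups against the spread between these tumours.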

Other observations

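Met, which encodes the HGF receptor and was in the list of inducing pathways, was singled out after its values were seen. It stood at 3693 CPM in aged 46 and at 123 to 344 CPM in the other 7 tumours, place 4 of 14575 genes by aged 46 over the median of the others. Its neighbours on chromosome 6 (GRCm38) were high in the same tumour. Capza2, an actin capping subunit (17637010 to 17666972), reached 8963 CPM there, with 340 to 605 CPM elsewhere, and St7 (17693901 to 17943023) 654 CPM, with 30.9 to 44.7 CPM elsewhere. On the other side of Met (17463349 to 17573980), aged 46 had 1427 CPM of Cav1, the main caveolin (389 to 808 CPM elsewhere), 339.9 CPM of Cav2 (68.9 to 141) and 472 CPM of Tes (46.4 to 169). Of the 10 tested genes within 1.5 Mb, Met included, 7 were higher in aged 46 than in any other tumour, and Tfec, Wnt2 and Cttnbp2 were not. Those 7 ranged from 2.57-fold (Lsm8) to 23.7-fold (Capza2) over the median of the other tumours. The share of all genes that were highest in aged 46 was not determined. DNA copy number was not analysed here. In the same tumour Snai1, Snai2, Zeb1, Zeb2 and Twist1 were not the highest of the 8, while Twist2, Cdh2 and Vim were.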
